A study of Mus musculus with 6 samples.

Results

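Cerebellar granule and Purkinje cell genes were examined as 10 genes, taken by gene name from the annotated rows of all 6 libraries, out of 55359 annotated genes. Of these, 7 belong to the granule lineage (Atoh1, Barhl1, Zic1, Zic2, Zic4, Cbln1 and Cbln3) and 3 to the Purkinje lineage (Pcp4, Calb1 and Skor2), and each had 1 row per library. RNA from the whole brain of mouse embryos was sequenced at E18.5, shortly before birth. The S156A group comprised 3 libraries from PME-1 S156A knock-in embryos and the WT group 3 libraries from embryos labelled WT, and 3 brains were pooled per library. PME-1, the product of Ppme1, demethylates protein phosphatase 2A, and S156A puts alanine in the position of its active-site serine. The sources used here give no strain, zygosity or sex of the embryos. The cerebellum was not dissected, so each value is the level of a transcript in the whole brain, and fewer cells of a type cannot be told apart from less RNA per cell.

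Granule cells are the most numerous neurons of the cerebellum. Their precursors arise in the rhombic lip under Atoh1, spread over the cerebellar surface as the external granule layer, divide there in response to Sonic hedgehog released by Purkinje cells, and move inward after birth. Purkinje cells are the inhibitory output neurons of the cerebellar cortex. They arise from the Ptf1a-positive ventricular zone and gather beneath the external granule layer by late gestation. Several of the genes are also used elsewhere in the brain, the Zic genes in the dorsal midline, septum and meninges, and Cbln1, Pcp4 and Calb1 in thalamus, striatum or other forebrain regions.

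Levels are given as TPM, the abundance of a transcript as a scaled share of its library, which corrects for transcript length, so that genes can be ranked against each other. Across the 6 libraries Pcp4 had the highest mean level at 162 TPM, followed by Zic1 at 100.1 TPM, Zic2 at 69.7 TPM, Cbln1 at 58.2 TPM, Barhl1 at 26.9 TPM, Zic4 at 20.5 TPM and Calb1 at 14.6 TPM. Skor2 at 4.75 TPM, Atoh1 at 2.19 TPM and Cbln3 at 0.764 TPM were the lowest. Between neighbours in this order the ranges over libraries did not overlap for Cbln1 over Barhl1, Calb1 over Skor2, Skor2 over Atoh1 and Atoh1 over Cbln3. Zic2 exceeded Cbln1 in 4 of 6 libraries and Barhl1 exceeded Zic4 in 5 of 6, and the other neighbours kept their order in all 6.

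The place of Pcp4 at the top is uncertain. Its deposited coverage was only 2.42% to 2.46% of the depth that its FPKM implies, whereas this share was 42.0% to 64.8% for Zic4 and at least 80.5% for the other 8 members. An annotated gene without a conventional symbol, Gm49948, overlaps Pcp4 on the same strand. Gm49948 was listed at 41.0, 58.0 and 63.6 TPM in S156A libraries 1 to 3, against 83.5, 88.4 and 63.6 TPM in WT libraries 1 to 3. Reads shared between both genes could have been split either way.

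Promoter sequences are shown for members on which the comparison turned or which lie next to each other. The table of RefSeq promoters used here (250 bases before to 50 bases after the annotated start, GRCm38.p6) covered 6 of the 10 genes, and Zic2, Cbln1, Calb1 and Skor2 are named without a sequence. Atoh1 and Pcp4 are given because their S156A and WT libraries did not overlap, Barhl1 because it carries 2 annotated starts and acts downstream of Atoh1 in mouse, and Zic1 and Zic4 because they are divergent neighbours. Capitals mark matches to the E-box CANNTG on either strand, the motif class bound by basic helix-loop-helix factors such as Atoh1.
Atoh1 (chr6:64728875-64729174, plus strand): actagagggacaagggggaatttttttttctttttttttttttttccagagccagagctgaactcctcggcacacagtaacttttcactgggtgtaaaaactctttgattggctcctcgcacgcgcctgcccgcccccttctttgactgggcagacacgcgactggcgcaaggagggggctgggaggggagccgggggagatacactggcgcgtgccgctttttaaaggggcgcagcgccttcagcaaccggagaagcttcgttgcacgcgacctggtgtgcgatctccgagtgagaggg
Barhl1 (chr2:28916619-28916918, minus strand): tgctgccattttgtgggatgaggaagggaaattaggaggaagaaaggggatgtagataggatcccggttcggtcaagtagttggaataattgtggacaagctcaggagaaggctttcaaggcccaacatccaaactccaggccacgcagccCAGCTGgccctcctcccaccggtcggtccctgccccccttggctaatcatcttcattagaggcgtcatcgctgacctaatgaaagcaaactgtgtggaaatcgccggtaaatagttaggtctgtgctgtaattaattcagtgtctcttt
Barhl1 (chr2:28912446-28912745, minus strand): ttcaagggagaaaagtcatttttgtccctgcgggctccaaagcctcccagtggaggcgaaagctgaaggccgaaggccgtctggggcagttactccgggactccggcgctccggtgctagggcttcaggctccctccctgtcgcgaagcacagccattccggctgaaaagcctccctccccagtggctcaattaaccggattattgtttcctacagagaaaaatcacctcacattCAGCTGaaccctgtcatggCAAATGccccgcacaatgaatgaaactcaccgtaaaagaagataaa
Zic1 (chr9:91365719-91366018, minus strand): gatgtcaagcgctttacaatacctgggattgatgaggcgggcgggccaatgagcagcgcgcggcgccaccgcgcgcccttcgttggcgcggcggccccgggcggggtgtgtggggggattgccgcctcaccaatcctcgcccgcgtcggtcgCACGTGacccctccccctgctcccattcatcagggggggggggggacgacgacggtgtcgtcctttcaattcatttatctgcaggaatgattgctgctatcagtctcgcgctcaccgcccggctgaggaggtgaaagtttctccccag
Zic4 (chr9:91368722-91369021, plus strand): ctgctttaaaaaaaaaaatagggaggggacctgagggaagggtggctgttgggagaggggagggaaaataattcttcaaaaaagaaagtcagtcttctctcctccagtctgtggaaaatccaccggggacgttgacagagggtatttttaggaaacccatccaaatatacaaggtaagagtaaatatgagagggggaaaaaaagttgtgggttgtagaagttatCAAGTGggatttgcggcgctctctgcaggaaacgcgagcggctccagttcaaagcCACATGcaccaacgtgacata
Pcp4 (chr16:96467356-96467655, plus strand): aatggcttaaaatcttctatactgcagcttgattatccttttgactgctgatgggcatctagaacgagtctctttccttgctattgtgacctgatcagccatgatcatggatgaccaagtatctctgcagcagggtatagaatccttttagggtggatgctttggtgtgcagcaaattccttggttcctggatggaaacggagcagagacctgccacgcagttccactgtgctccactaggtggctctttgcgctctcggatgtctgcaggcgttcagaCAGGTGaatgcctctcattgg
The Atoh1 window held 0 matches to CANNTG, the first Barhl1 window 1 and the second 2, Zic1 1, Zic4 2 and Pcp4 1. CANNTG is a short motif and 72.3% of the 32851 RefSeq promoters of this length held it. The stricter form CAGCTG, which overlaps CANNTG, was present in both Barhl1 windows and in 16.3% of all promoters. The Gli motif GACCACCCA was in none of these windows and in 0.253% of all promoters. These matches describe the sequences and were not tested against expression.

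The groups were compared by limma on log2(TPM + 1) across 18893 genes whose TPM averaged 1 or more, with Benjamini-Hochberg adjustment of the p-values over all of them. Of the 10 members 9 passed this filter, Cbln3 being under it. In S156A brains the level of Atoh1 was above that in WT in every library, those of Pcp4 and Calb1 were below it in every library, and the libraries of the groups overlapped for Barhl1, the Zic genes, Cbln1, Cbln3 and Skor2. None of the 9 tested members was called at an adjusted p under 0.05, against 0.159% of all tested genes (limma; 0.0847% as higher and 0.0741% as lower), and the smallest adjusted p among them was 0.27. At an unadjusted p under 0.05 there were 3, Cbln1, Pcp4 and Calb1, all lower in S156A, where 13.9% of all tested genes passed in either direction, 8.41% as higher and 5.5% as lower. In 3 members the S156A and WT libraries did not overlap, Atoh1 as higher and Pcp4 and Calb1 as lower, where 20.8% of all tested genes did not overlap, 13.7% as higher and 7.05% as lower. The exact permutation test of 3 against 3 libraries cannot give a p below 0.1, and it gave 0.1 for these 3 genes.

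**Figure D1:**
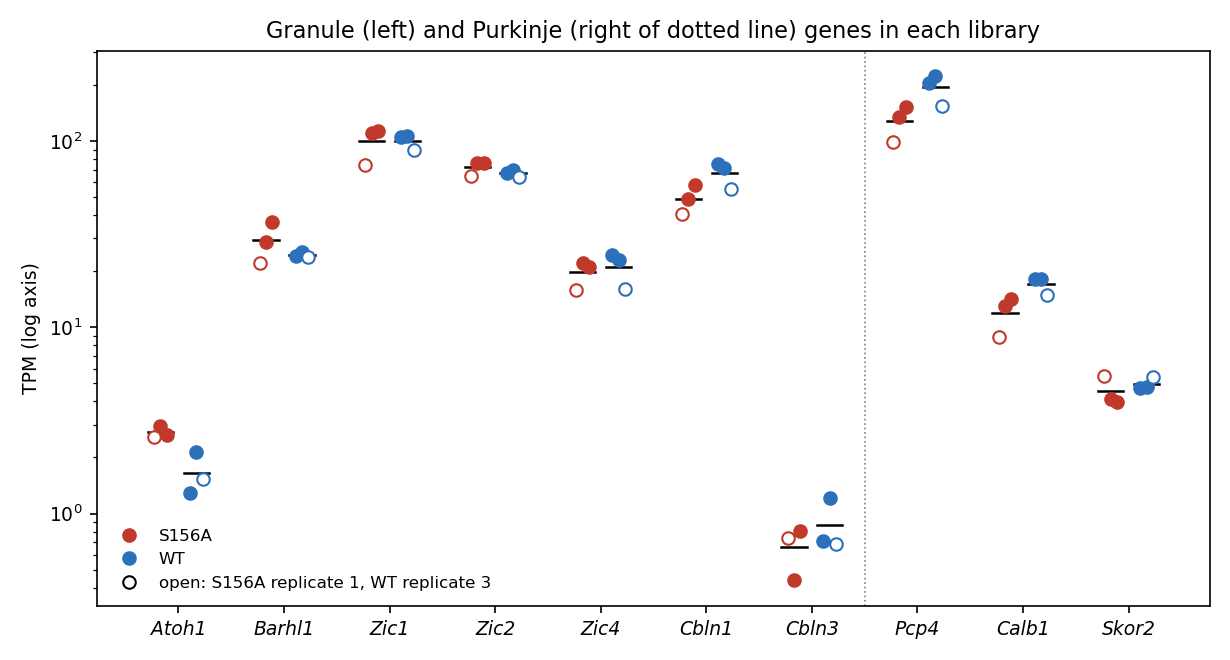
TPM (log axis) of the 7 granule and 3 Purkinje genes, 1 point per library, S156A in red and WT in blue, with a bar at each group mean and open points for S156A replicate 1 and WT replicate 3. Atoh1, Pcp4 and Calb1 are the genes whose groups do not overlap, and the open points are the lowest of their group for Barhl1, Zic1, Zic2, Zic4, Cbln1, Pcp4 and Calb1 but the highest for Skor2.

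Before single genes are described, 2 libraries have to be named. Skeletal muscle genes (7 tested) summed to 6613 TPM in S156A replicate 1 and 5877 TPM in WT replicate 3, against 768 TPM in WT replicate 2 and 17.4 to 47.9 TPM in the other libraries. The difference of each member is therefore also given without these 2 libraries, which leaves 2 S156A and 2 WT libraries. WT replicate 2 stays among them, so that comparison is not free of muscle transcripts. Of the related genes and lists it is given per gene or list below. Positions are those of the files, inferred to be GRCm39. Estimated depth was 3.15 to 4.14 aligned gigabases per library. Ppme1 lay within the spread between libraries (log2 difference -0.09, SE 0.14, -0.13 without both muscle-rich libraries; adjusted p by limma, 0.80), and the level of a transcript with a point change is no check of the genotype.

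Atoh1 (ENSMUSG00000073043.6, chromosome 6, 64706109 to 64708229, plus strand), the basic helix-loop-helix factor that specifies the granule lineage in the rhombic lip, had 2.57, 2.96 and 2.65 TPM in S156A libraries 1 to 3, against 1.29, 2.14 and 1.52 TPM in WT libraries 1 to 3. All S156A values lay above all WT values. The log2 difference was 0.50 (SE 0.25, limma unadjusted p = 0.081, adjusted p = 0.42), with a 95% interval of -0.08 to 1.09. Without the 2 muscle-rich libraries it was 0.50 (adjusted p = 0.46). At these low levels the size depends on the pseudocount, from 0.22 with 5 to 0.72 with 0.1. The deposited coverage of Atoh1 was only 2.89 to 3.82 in S156A libraries and 1.35 to 2.33 in WT libraries.

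Barhl1 (ENSMUSG00000026805.15, chromosome 2, 28797691 to 28806680, minus strand), a homeobox factor needed for granule cell migration and survival in mouse, had 22.1, 28.9 and 36.9 TPM in S156A libraries, against 24.3, 25.4 and 24.0 TPM in WT libraries. The S156A values spread around the narrow WT range, replicate 1 below it and replicates 2 and 3 above. The log2 difference was 0.22 (SE 0.19, limma adjusted p = 0.65). It ranged from 0.04 without S156A replicate 3 to 0.40 without S156A replicate 1, and was 0.38 without both muscle-rich libraries (adjusted p = 0.33).

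Among the zinc-finger factors of the Zic family, which keep granule precursors in an immature, dividing state, Zic1 had 74.7, 111 and 114 TPM in S156A libraries, against 105, 106 and 89.7 TPM in WT libraries. Zic2 had 64.6, 76.2 and 75.9 TPM in S156A libraries, against 67.8, 69.8 and 64.3 TPM in WT libraries. Zic4 had 15.8, 22.2 and 21.2 TPM in S156A libraries, against 24.5, 23.0 and 16.1 TPM in WT libraries. The groups overlapped for all 3 genes, and the muscle-rich libraries held the lowest value of each group.

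The log2 differences were -0.03 (SE 0.18) for Zic1, 0.10 (SE 0.11) for Zic2 and -0.09 (SE 0.21) for Zic4. The limma adjusted p values were 0.97, 0.73 and 0.88. The 95% intervals reached from -0.45 to 0.39 for Zic1, from -0.16 to 0.35 for Zic2 and from -0.58 to 0.40 for Zic4, so differences within those bounds could not be told from 0. Without the muscle-rich libraries the log2 differences were 0.09, 0.14 and -0.13, none called. Zic2 (ENSMUSG00000061524.9) lies on the plus strand of chromosome 14, 122712847 to 122717264. Zic1 and Zic4 lie on opposite strands of chromosome 9 (Zic1 91240111 to 91247863, minus strand; Zic4 91244466 to 91271401, plus strand, identifiers ENSMUSG00000032368.15 and ENSMUSG00000036972.15), with 3398 bases shared by their annotated spans, and their RefSeq starts in GRCm38.p6 are 3204 bases apart. The kit kept strand, but no source used here states a strand setting for the counting, so reads in the shared bases cannot be assigned to either gene with certainty. The assembled locus that overlaps Zic4 carried 1.49 to 2.15 times the TPM of the annotated row, which makes the level of Zic4 less certain than that of Zic1, where this ratio was 1.00 to 1.03.

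Cbln1 (ENSMUSG00000031654.17, chromosome 8, 88195033 to 88199237, minus strand), a secreted synapse organizer of granule cells that binds presynaptic neurexin, had 40.4, 48.6 and 57.9 TPM in S156A libraries, against 75.2, 72.1 and 55.3 TPM in WT libraries. The groups overlapped through S156A replicate 3 and WT replicate 3. Gm2694, on the opposite strand, spans Cbln1 and was listed at 13.0 to 23.3 TPM in S156A and 18.1 to 26.8 TPM in WT. The log2 difference was -0.46 (SE 0.18, limma unadjusted p = 0.034, adjusted p = 0.32), and without the muscle-rich libraries it was -0.47 (unadjusted p = 0.014, adjusted p = 0.20). Cbln3 (ENSMUSG00000040380.15, chromosome 14, 56116370 to 56121849, minus strand), a family member of mature granule cells that is secreted together with Cbln1, had 0.734, 0.437 and 0.802 TPM in S156A libraries, against 0.714, 1.21 and 0.682 TPM in WT libraries. These levels were the lowest of the 10 genes and the groups overlapped (log2 difference -0.17, exact permutation p = 0.6; -0.28 without the muscle-rich libraries), and only 3 of the 6 libraries held an assembled locus there.

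Pcp4 (ENSMUSG00000090223.3, chromosome 16, 96268806 to 96326993, plus strand), a small calmodulin regulator abundant in Purkinje cells, had 98.5, 134 and 153 TPM in S156A libraries, against 206, 224 and 155 TPM in WT libraries. Every S156A value was below every WT value, with S156A replicate 3 and WT replicate 3 almost level. The log2 difference was -0.60 (SE 0.20, limma unadjusted p = 0.020, adjusted p = 0.27), and -0.58 without the muscle-rich libraries (unadjusted p = 0.0032, adjusted p = 0.13). In coverage per aligned gigabase, a measure that does not use the uncertain FPKM of this gene, the values were 0.813, 0.979 and 1.31 in S156A libraries and 1.67, 1.796 and 1.30 in WT libraries, and the groups overlapped in replicate 3. With a pseudocount of 1, which is large beside coverage values near 1, the log2 difference was -0.35, and with none it was -0.64 (exact permutation p = 0.2 for each). The ratio of the S156A mean to the WT mean was 0.649 in coverage and 0.66 in TPM. Coverage was a nearly constant share of what the FPKM implies (2.42% to 2.46%), so these ratios had to lie close together and are no independent check.

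Calb1 (ENSMUSG00000028222.3, chromosome 4, 15881264 to 15908064, plus strand), the calcium buffer calbindin that marks Purkinje cells from soon after their final division, had 8.85, 13.0 and 14.1 TPM in S156A libraries, against 18.2, 18.3 and 15.0 TPM in WT libraries. The groups did not overlap. The log2 difference was -0.50 (SE 0.21, limma unadjusted p = 0.044, adjusted p = 0.35), with a 95% interval of -0.99 to -0.02, and -0.40 without the muscle-rich libraries (unadjusted p = 0.059, adjusted p = 0.32). Leaving out S156A replicate 1 alone brought it to -0.31 (unadjusted p = 0.12). Skor2 (ENSMUSG00000091519.2, chromosome 18, 76944100 to 76988037, plus strand), a corepressor of postmitotic Purkinje cells required for their maturation in mouse, had 5.46, 4.13 and 3.98 TPM in S156A libraries, against 4.73, 4.79 and 5.44 TPM in WT libraries. The groups overlapped, and the 2 highest values were those of the muscle-rich libraries. The log2 difference was -0.12 (SE 0.21, limma adjusted p = 0.84), and -0.19 without those libraries (adjusted p = 0.74).

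**Figure D2:**
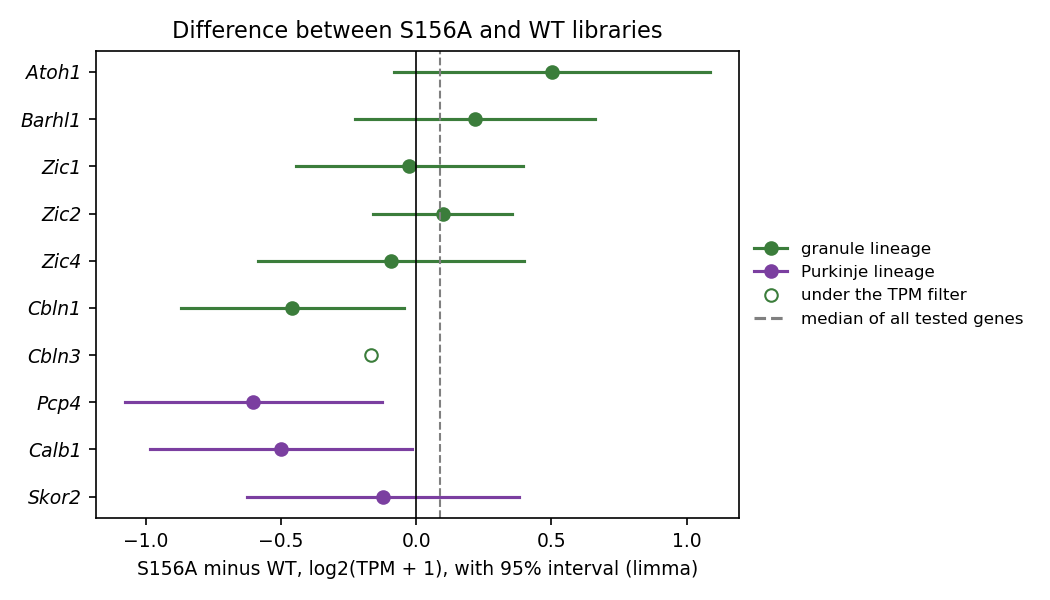
Difference between S156A and WT in log2(TPM + 1) for each gene, with the 95% interval of the limma fit, granule genes in green and Purkinje genes in purple. The intervals of Cbln1, Pcp4 and Calb1 lie below 0, that of Atoh1 reaches from -0.08 to 1.09, and Cbln3 has no interval because it was under the filter. The dashed line is the median of all tested genes, 0.09.

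The lineages were then set against each other. The median log2 difference was -0.03 over the 7 granule genes, 3 of them higher in S156A, and -0.50 over the 3 Purkinje genes, 0 of them higher, beside 0.09 over all tested genes. In the S156A libraries the mean log2(TPM + 1) of the granule genes minus that of the Purkinje genes was -0.08, -0.04 and -0.01, and in the WT libraries -0.49, -0.42 and -0.49. The 2 groups did not overlap in this contrast. Without Pcp4, whose level is uncertain, the contrast was 1.13, 1.29 and 1.37 in S156A libraries and 0.95, 1.06 and 0.82 in WT libraries, again without overlap, while the gap between the 2 median differences was 0.29 without Pcp4, against 0.48 with it. Without the low genes Atoh1 and Cbln3 the contrast of means was 1.04, 1.21 and 1.24 in S156A libraries and 0.86, 0.81 and 0.76 in WT libraries. Taken as granule median minus Purkinje median over all 10 genes, it was 1.23, 1.09 and 1.33 in S156A libraries and 0.41, 0.45 and 0.65 in WT libraries. The groups did not overlap in either. With both changes together the contrast was 2.07, 1.82 and 1.96 in S156A libraries and 1.84, 1.88 and 1.82 in WT libraries, and the groups overlapped. The contrast is a score over chosen genes and was given no test. As single genes, 20.8% of all tested genes did not overlap between the groups. Pcp4, Calb1 and Atoh1 were already without overlap as single genes, and every version of the contrast kept Calb1. The versions therefore restate these genes and are no separate support.

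**Figure D3:**
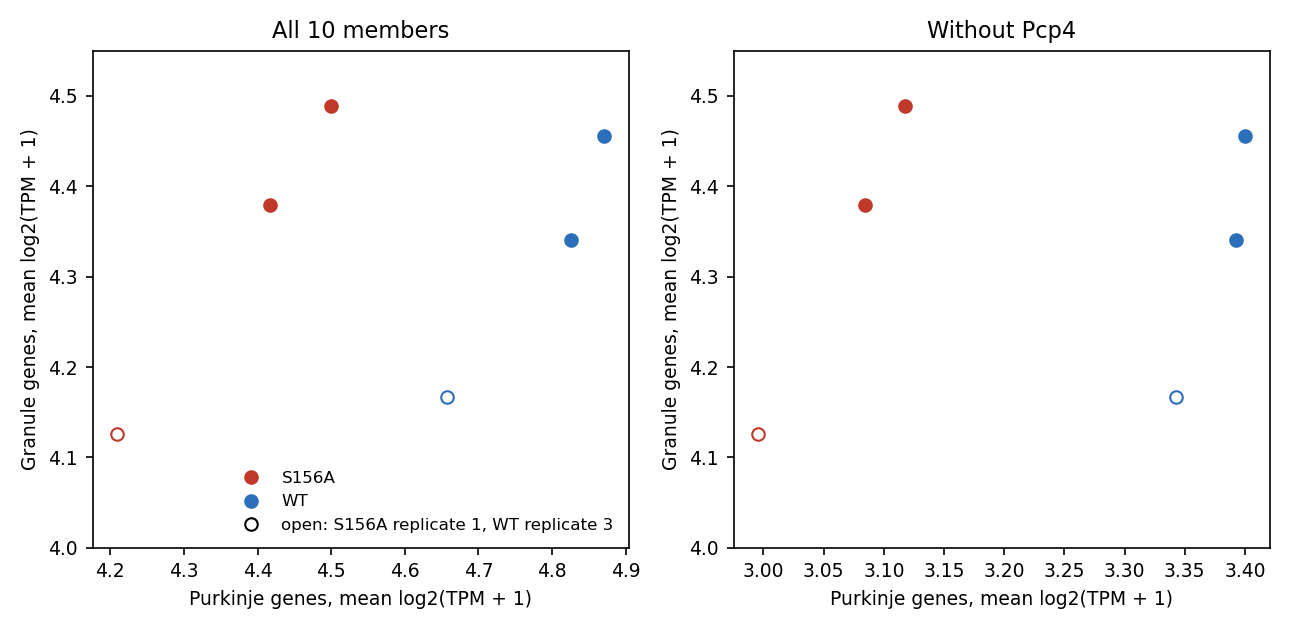
Mean log2(TPM + 1) of the 7 granule genes (vertical) against that of the Purkinje genes (horizontal), 1 point per library, S156A in red and WT in blue, with open points for S156A replicate 1 and WT replicate 3, for all 10 genes on the left and without Pcp4 on the right. The WT libraries lie to the right of the S156A libraries on the horizontal axis in both panels, and the vertical ranges of the groups overlap.

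Correlations between members across the 6 libraries are given as a description, because the libraries also share composition. Cbln1, Pcp4 and Calb1 followed each other (Pearson r = 0.98 for Cbln1 with Pcp4, 0.96 for Cbln1 with Calb1 and 0.98 for Pcp4 with Calb1, n = 6 libraries, log2(TPM + 1)). Zic1, Zic2 and Barhl1 were also alike (r = 0.83 for Zic1 with Zic2, 0.73 for Zic1 with Barhl1 and 0.87 for Zic2 with Barhl1). Zic4 and Zic1 stood near both sets, with r = 0.85 for Zic1 with Zic4, 0.73 for Zic4 with Cbln1, 0.71 for Zic4 with Pcp4, 0.68 for Zic1 with Calb1 and 0.63 for Zic1 with Pcp4. Atoh1 reached at most 0.61, with Zic2, and -0.62 with Cbln1, and Cbln3 at most 0.54, with Pcp4. Skor2 ran opposite to the Zic genes, with r = -0.98 against Zic2 and -0.87 against Zic1. Among 15143 named genes, the levels most like Barhl1 were those of Upf3b (r = 0.9987), Ssbp4 (0.991) and Dyrk3 (0.988), and those most like Skor2 were Snd1 (0.997), Coro6 (0.988) and Myadml2 (0.986). Coro6 was at 10.1 TPM in S156A replicate 1 and 8.79 TPM in WT replicate 3, against 0.919 to 3.05 TPM in the other libraries, so it had its 2 highest values in the muscle-rich libraries, as Skor2 did.

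Of 14 other genes of the granule lineage, 13 were tested, and limma called 0. Of the 13, 9 had a positive and 4 a negative log2 difference, where 61.7% of all tested genes had a positive one. Their median was 0.12, beside 0.09 over all tested genes. There was 1 in each direction at an unadjusted p under 0.05, beside 8.41% of all tested genes as higher and 5.5% as lower. Grm4, a metabotropic glutamate receptor of granule cell terminals, stood at 9.49 ± 0.349 TPM in S156A and 19.0 ± 1.13 TPM in WT (SD, n = 3 each), with groups that did not overlap and a log2 difference of -0.93 (SE 0.14; adjusted p by limma, 0.069). Neurod1, a factor of differentiating granule cells that is shared with cortical neurons, stood at 42.8 ± 5.998 TPM in S156A and 26.0 ± 4.10 TPM in WT, a log2 difference of 0.70 (SE 0.16, adjusted p = 0.16). The adhesion gene Cntn2 had a log2 difference of 0.41 and the helix-loop-helix gene Nhlh1 one of 0.38, with adjusted p of 0.36 and 0.41. Without both muscle-rich libraries the log2 differences were -0.97 for Grm4, 0.76 for Neurod1, 0.53 for Cntn2 and 0.37 for Nhlh1, and the median of the list was 0.18. Gabra6, a receptor subunit of mature granule cells, was near 0 in both groups (0.0256 TPM in S156A and 0.074 TPM in WT, named after its value was seen).

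Sonic hedgehog, which drives granule precursors to divide, and its pathway gave 15 tested genes. Of these, 8 had a positive and 7 a negative difference, where 61.7% of all tested genes had a positive one. The median was 0.0072, with 0 calls by limma and 1 gene whose unadjusted p was under 0.05, beside 13.9% of all tested genes. That gene was Smo, the signal transducer of the pathway, at 39.3 ± 6.21 TPM in S156A and 24.7 ± 6.53 TPM in WT (SD, n = 3 each; log2 difference 0.67, limma adjusted p = 0.24). Shh, the ligand made by Purkinje cells, stood at 2.80 ± 0.527 TPM in S156A and 3.56 ± 0.310 TPM in WT, a log2 difference of -0.27 (adjusted p = 0.64). The inhibitor Sufu had a log2 difference of 0.31 (adjusted p = 0.41), and the coreceptor Boc one of 0.37 (adjusted p = 0.49). Without both muscle-rich libraries the median of the list was 0.24, with 11 of 15 differences positive. In that comparison 11470 of all 18893 tested genes had a positive difference, with a median of 0.095. The log2 differences were then 0.74 for Smo, -0.39 for Shh, 0.40 for Sufu and 0.36 for Boc.

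Of 15 other genes of the Purkinje lineage, all tested, limma called 0. A negative difference was found in 11 of them, beside 38.3% of all tested genes, with a median of -0.43 (-0.45 without both muscle-rich libraries), and 5 had an unadjusted p under 0.05, all lower, beside 5.5% of all tested genes. Slc1a6, the glutamate transporter of Purkinje cells, had 2.32, 11.7 and 12.2 TPM in S156A libraries, against 29.4, 32.9 and 22.2 TPM in WT libraries, which gave -1.81 on the log2 scale (SE 0.52; adjusted p by limma, 0.22). The lowest value was that of muscle-rich S156A replicate 1, without which the difference was -1.15, and without both muscle-rich libraries it was -1.31 (adjusted p = 0.082). Car8, named after its value was seen, had a log2 difference of -0.53, and -0.45 without both. The largest positive differences were those of Foxp2 (1.36, adjusted p = 0.38) and Dab1 (1.27, adjusted p = 0.55), named after their values were seen, whose WT libraries spread from 3.37 to 27.2 TPM and from 3.85 to 61.7 TPM and overlapped the S156A libraries. Without both muscle-rich libraries they were 1.44 and 1.70, and without WT replicate 1 alone 0.71 and 0.15. The early Purkinje factors Lhx1 and Lhx5, also named after their values were seen, had differences of -0.12 and 0.05 (-0.07 and 0.15 without both), like Skor2 within the spread between libraries.

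The cerebellin family and its partners gave 7 tested genes, 6 with a negative difference, beside 38.3% of all tested genes, and a median of -0.37. There were 0 calls by limma and 3 genes whose unadjusted p was under 0.05, all lower, beside 5.5% of all tested genes. Cbln4 and Cbln2, the paralogs of Cbln1 in forebrain and brainstem neurons, had log2 differences of -0.78 (SE 0.20, adjusted p = 0.19) and -0.82 (SE 0.25, adjusted p = 0.25). Without both muscle-rich libraries they were -0.72 for both, and the median of the list was -0.55. Other cerebellar cells gave 7 tested genes, 3 with a positive difference, beside 61.7% of all tested genes, and 0 calls by limma. At an unadjusted p under 0.05 there were 2 higher and 1 lower, beside 8.41% and 5.5% of all tested genes. Wls, a marker of the interior rhombic lip that is also made in choroid plexus, stood at 45.3 ± 1.67 TPM in S156A and 27.1 ± 3.07 TPM in WT (log2 difference 0.73, SE 0.12, adjusted p = 0.081). Eomes, found in unipolar brush cells and in cortical progenitors, differed by 0.64, and Calb2 by -0.99 (adjusted p = 0.22 and 0.28). Pax2, of inhibitory interneuron precursors, stood at 6.22 ± 0.903 TPM in S156A and 8.52 ± 1.07 TPM in WT (log2 difference -0.40, adjusted p = 0.42). Without both muscle-rich libraries these differences were 0.76 for Wls, 0.55 for Eomes, -1.01 for Calb2 and -0.42 for Pax2, while the median of the list was 0.10, against -0.16 with all libraries.

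**Figure D4:**
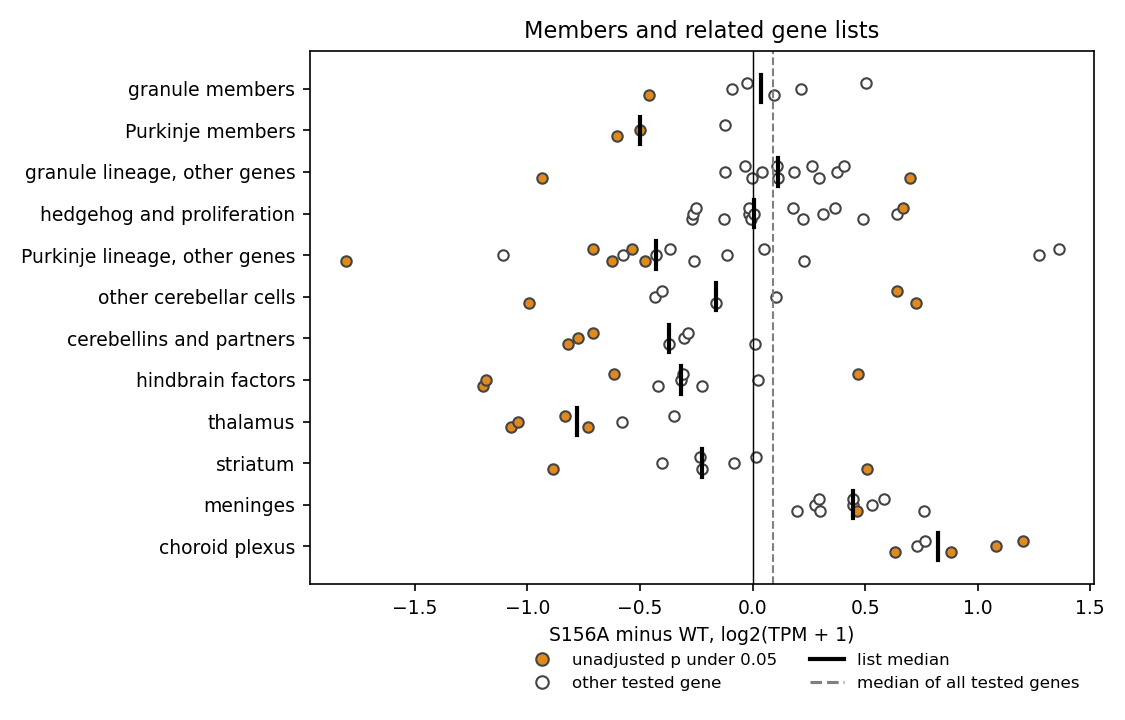
Log2 difference between S156A and WT for each tested gene of the member groups and of the related lists, filled where the unadjusted limma p is under 0.05, with a bar at each list's median. The Purkinje, cerebellin, hindbrain, striatal, thalamic and other cerebellar lists have medians below 0. The medians of the choroid plexus (0.82), meningeal (0.45) and other granule lineage genes (0.12) lie above the dashed median of all tested genes at 0.09. Those of the tested granule members (0.036) and the hedgehog list (0.0072) lie between 0 and that line. The skeletal muscle list (median -0.62) is not drawn.

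Markers of other regions that also make Cbln1, Pcp4, Calb1 or Zic transcripts were set beside these values. The summed levels of the thalamic and choroid plexus genes did not overlap between the groups, and those of the striatal, hindbrain and meningeal genes did. Single genes weigh heavily in these sums. Ttr made up most of the choroid plexus sum, with 2177 to 3335 TPM in S156A and 1028 to 1471 TPM in WT, while Otx2 and Aqp1 overlapped between the groups. Col1a1, of the meningeal list, had 1318 TPM in S156A replicate 1 and 934 TPM in WT replicate 3, against 53.0 to 216 TPM in the other libraries. All 6 thalamic genes had negative differences (median -0.78), beside 38.3% of all tested genes. Of these 6, 4 had an unadjusted p under 0.05, beside 5.5% of all tested genes as lower, and limma called 0. The summed level of the 6 thalamic genes was 107 to 166 TPM in S156A and 198 to 304 TPM in WT. Ntng1, a thalamic axon protein, stood at 9.66 ± 0.639 TPM in S156A and 21.5 ± 2.68 TPM in WT (SD, n = 3 each; adjusted p = 0.064). The 7 striatal genes had a median of -0.22, 1 at an unadjusted p under 0.05 in each direction, and summed to 214 to 287 TPM in S156A and 233 to 293 TPM in WT. The 9 hindbrain factors had a median of -0.32, with 3 lower and 1 higher at an unadjusted p under 0.05 (5.5% and 8.41% of all tested genes). They summed to 52.2 to 73.7 TPM in S156A and 62.6 to 76.5 TPM in WT. The 10 meningeal genes all had positive differences (median 0.45, 1 at an unadjusted p under 0.05), where 61.7% of all tested genes had a positive one. They summed to 350 to 2085 TPM in S156A and 158 to 1558 TPM in WT. The 6 choroid plexus genes were likewise all positive (median 0.82), with 4 at an unadjusted p under 0.05, beside 8.41% of all tested genes as higher. Their sums were 2325 to 3454 TPM in S156A and 1116 to 1530 TPM in WT. Without both muscle-rich libraries the medians were -0.86 for the thalamic, -0.04 for the striatal, -0.61 for the hindbrain, 0.57 for the meningeal and 0.96 for the choroid plexus genes, and Ntng1 had a log2 difference of -1.19. None of the 38 genes of these 5 lists was called by limma, and their part in the differences of the cerebellar genes was not tested.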

How the data were processed

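RNA was sequenced from 3 S156A and 3 WT libraries of pooled brains with a directional MGIEasy kit, per the labels' protocols. The submitters' processing notes name Trim Galore 0.6.6, HISAT2 2.2.1, StringTie 2.1.5 and the human build hg38, although the rows carry mouse identifiers. Of 38135 genes matched by symbol, 3.18% started within 1000 bases of their GRCm38 position, so the files' coordinates were inferred to be GRCm39. Per the file headers, the authors deposited FPKM values, TPM values (stored with annotated and assembled rows in 1 column) and unnormalized coverage. Annotated rows were used and 7 gene identifiers on several rows were summed. No read counts were given, so counting intervals cannot be had. Depth was estimated from the commonest ratio of coverage to FPKM.

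Expression was tested with limma 3.58.1 in R 4.3.3 (eBayes with trend, two-sided) on log2(TPM + 1), which understates fold changes of low genes, for genes whose TPM averaged 1 or more, and the fit was tested on simulated data. The members and lists were chosen with earlier results of these data known. Named were all members, Ppme1, up to 4 genes per list with the smallest unadjusted p, and the 3 genes most like Barhl1 and Skor2; other genes are marked. The alternatives were FPKM, other pseudocounts, filters and scalings, eBayes without trend, weighted libraries, a block on the replicate number, and libraries left out. Assembled rows, coverage (with and without a pseudocount), members left out, and related genes without single libraries were added after the data were seen. Replicates are separate pools per the labels, so single embryos were not measured. Some genes of the related lists enter the list counts and medians but are not reported here one by one.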

Additional observations from a re-analysis of the deposited data

How the results depend on the processing

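No member was called by limma under any of the 17 settings fitted across all genes. Settings that called 0 genes in the whole table, such as no filter or the replicate block, could call no member. Cbln3 was fitted only without a filter. Atoh1 and Skor2 were not fitted with a filter at a mean TPM of 5, nor Atoh1 in FPKM. Of 160 alternative values, 152 kept the direction of their member, leaving out 4 settings that cannot move the estimate (no filter, a stricter filter, no trend and the replicate block). For Atoh1, Pcp4 and Calb1, whose groups did not overlap, leaving out libraries or changing the pseudocount could not reverse the sign. Assembled rows nearly repeated the annotated rows of these genes, and coverage nearly repeated FPKM for Atoh1, Cbln3 and Skor2. Part of the 152 was thus fixed in advance, and the count does not measure how stable the directions are. The values with the opposite sign were Zic1 with library weights (0.0095), without S156A replicate 1 (0.17), without WT replicate 1 (0.0071), without WT replicate 2 (0.018) and without both muscle-rich libraries (0.091), Zic4 without S156A replicate 1 (0.051) and without WT replicate 1 (0.019), and Cbln3 in assembled rows (0.17). With 1 library left out Zic1 ranged from -0.13 to 0.17 and Zic4 from -0.27 to 0.05. Members at an unadjusted p under 0.05 numbered 3 in the main comparison (Cbln1, Pcp4 and Calb1) and 0 without WT replicate 1 or 2. Without S156A replicate 1 the single one was Barhl1 (0.040, higher), with Cbln1 at 0.10, Pcp4 at 0.051 and Calb1 at 0.12. Without S156A replicate 2 it was Pcp4, and without both muscle-rich libraries Cbln1 and Pcp4 were the 2. Without a trend they were Atoh1, Pcp4 and Calb1. The count of genes called over the whole table, 30, was 0 without a filter, 75 with a trimmed mean of M values (17 higher and 58 lower), 52 with quantile normalization, 16 without a trend, 309 with library weights, 0 without both muscle-rich libraries, and 0 to 70 with 1 library left out. The cause of these shifts was not tested. The gap between the lineages' medians, 0.48, lay between 0.47 and 0.50 with 1 library left out, at 0.60 in assembled rows, 0.29 without Pcp4, and 0.27 in coverage per gigabase with a pseudocount of 1, against 0.54 with none.

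With the replicate number as a block, 0 genes and 0 members were called (1880 genes and 1 member at an unadjusted p under 0.05). The numbers are not a stated pairing: deviations of same-numbered libraries correlated at -0.55, 0.19 and -0.41. Read counts per gene are unknown, but coverage was deposited. It was lowest for Cbln3 (0.427 to 1.32), Atoh1 (1.35 to 3.82), Pcp4 (3.15 to 5.95) and Skor2 (4.03 to 7.17), which limits these genes most.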
